A study of Mus musculus with 6 samples.

Results

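The 9 genes described here mark stem and progenitor cells of the mouse olfactory epithelium: Krt5, Krt14, Trp63, Sox2, Lgr5, Kit, Hes6, Neurog1 and Neurod1. They were taken by name, and each was found among the 21982 gene symbols that both deposited tables hold. RNA with poly(A) tails from the olfactory epithelium was sequenced in 6 libraries, 1 per genotype, in mice of a mixed background chiefly from C57/B6. The embryos, at E18.5 (days of gestation), were a g9a heterozygote (called het here), a g9a knockout (KO), a g9a KO GLP heterozygote (KO GLP het) and a G9a/GLP double knockout (dKO). At postnatal day 21 they were suv420H1/suv420H2 double heterozygote (Suv420h dhet) and suv420H1/suv420H2 double knockout (Suv420h dKO). G9a and GLP place methyl groups on lysine 9 of histone H3, and both Suv420h enzymes on lysine 20 of histone H4. Every library, the references included, came from animals that lacked at least 1 allele of an enzyme, and no wild-type library was analysed here. The sources used here do not give the deleted part of each gene, any Cre line or the number of animals per library.

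The olfactory epithelium replaces its sensory neurons throughout life. Horizontal basal cells, which lie on the basement membrane and contain the keratins Krt5 and Krt14 and the transcription factor p63 (Trp63), form a reserve that divides little until injury. Globose basal cells divide actively, and their descendants pass through a progenitor stage marked by the basic helix-loop-helix (bHLH) factor Neurog1 and then one marked by Neurod1 before they become immature neurons. Sox2, Kit, Lgr5 and Hes6 have been used to mark overlapping sets of globose basal cells and their progeny. Krt5, Krt14 and p63 are also made by the basal layer of skin and mouth epithelium, Sox2 by supporting cells and glia, and Kit by mast cells and melanocytes.

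The 250 bases before an annotated start are shown for 2 pairs of genes. They are the basal keratins, the most abundant of the 9 genes at E18.5, and Neurog1 and Neurod1, which follow each other in the neuronal lineage. Krt14 has 2 annotated transcripts, and which of their starts its window precedes was not checked. The Krt14 window may therefore lie within the gene, and its letters are not to be read as those of the main promoter. The sequences are from RefSeq on build GRCm38.p6, all on the minus strand, and run 5′ to 3′. Those of Krt5 (chr15:101712906-101713155), Krt14 (chr11:100206031-100206280), Neurog1 (chr13:56252181-56252430) and Neurod1 (chr2:79456637-79456886) carry in capitals each E-box, written CANNTG, the general motif that bHLH factors bind. A TATA box, written TATAAA, was searched on both strands as well, as the E-box was.
Krt5: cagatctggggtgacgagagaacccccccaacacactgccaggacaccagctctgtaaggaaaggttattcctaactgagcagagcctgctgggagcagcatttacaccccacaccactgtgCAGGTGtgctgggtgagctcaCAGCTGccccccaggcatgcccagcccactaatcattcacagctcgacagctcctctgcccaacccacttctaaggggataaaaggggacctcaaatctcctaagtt
Krt14: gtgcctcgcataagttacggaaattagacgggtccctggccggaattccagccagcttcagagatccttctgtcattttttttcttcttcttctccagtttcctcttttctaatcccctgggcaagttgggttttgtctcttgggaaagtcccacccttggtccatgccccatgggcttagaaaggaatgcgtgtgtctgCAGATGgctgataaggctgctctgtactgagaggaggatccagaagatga
Neurog1: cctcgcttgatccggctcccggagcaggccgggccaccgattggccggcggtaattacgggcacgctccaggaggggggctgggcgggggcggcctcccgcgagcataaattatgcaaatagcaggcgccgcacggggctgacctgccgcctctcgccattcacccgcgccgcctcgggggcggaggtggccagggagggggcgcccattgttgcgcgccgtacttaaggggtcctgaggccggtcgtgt
Neurod1: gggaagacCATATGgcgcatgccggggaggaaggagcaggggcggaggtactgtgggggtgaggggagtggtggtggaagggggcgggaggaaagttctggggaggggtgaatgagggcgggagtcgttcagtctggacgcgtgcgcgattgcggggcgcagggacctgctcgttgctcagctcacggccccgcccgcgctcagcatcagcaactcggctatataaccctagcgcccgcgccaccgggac
Krt5 held 2 E-boxes, starting 128 and 107 bases before the start, Krt14 held 1 at 50 bases, Neurod1 held 1 at 242 bases, and these letters were not in the Neurog1 window. No exact TATAAA was in these 4 windows, and variants of the box were not searched. Of 32851 RefSeq windows of this length, 66.2% held an E-box and 12.4% a TATAAA. The keratin windows were 56.0% (Krt5) and 49.6% (Krt14) G or C, against 71.2% for Neurog1 and 67.6% for Neurod1. A match describes the letters and not a bound site.

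Across the 4 comparisons, none of the 9 genes differed by as much as 2-fold between a knockout library and its reference. Values are FPKM, fragments per kb of transcript per 1000000 mapped fragments, as the authors deposited them. A difference is given as the log2 ratio of FPKM + 1, and a gene was called when it was at least 2-fold apart and at 1 FPKM or more in either library. With 1 library per genotype there is no replicate error, no p-value of this work is given, and the differences compare libraries rather than genotypes. By this rule 0 of 9 genes were called in each comparison, while 2.58% of 15173 genes were called in KO, 6.74% of 15233 in KO GLP het and 5.20% of 15301 in dKO, each against het, and 3.23% of 15078 in Suv420h dKO against Suv420h dhet. The calls split into 1.07% higher and 1.52% lower in KO, 2.16% and 4.58% in KO GLP het, 2.20% and 3.01% in dKO, and 1.04% and 2.19% in Suv420h dKO. Calls were few among all genes, so a count of 0 does not set the 9 genes apart. The 3 embryonic comparisons share the het library. All 9 genes passed the minimum in all 6 libraries.

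The typical size of the differences was larger than that of all genes in KO and close to it in the other 3 comparisons. The median log2 ratio of the 9 genes was 0.03 in KO, -0.24 in KO GLP het, -0.10 in dKO and -0.07 in Suv420h dKO, where all genes had medians of 0.02, -0.02, 0.01 and -0.06. The median size of the ratio, whatever its sign, was 0.32, 0.24, 0.22 and 0.19 for the 9 genes and 0.19, 0.25, 0.23 and 0.19 for all genes in the same order. For each embryonic FPKM the authors deposited a confidence interval, whose level the sources used here do not give. For each of the 9 genes the intervals overlapped between het and each of the 3 other libraries, while those of 1.56%, 4.64% and 3.50% of all genes did not overlap in KO, KO GLP het and dKO. Both 2-fold apart and without overlap were 1.38%, 4.15% and 3.27% of all genes, a rule under which the count for the 9 genes could only be 0. In the authors' deposited table, 0 of 9 genes had q under 0.05 in the postnatal test, beside 4.14% of 16058 genes, and 3 of 9 had p under 0.05, beside 15.9%.

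**Figure D1:**
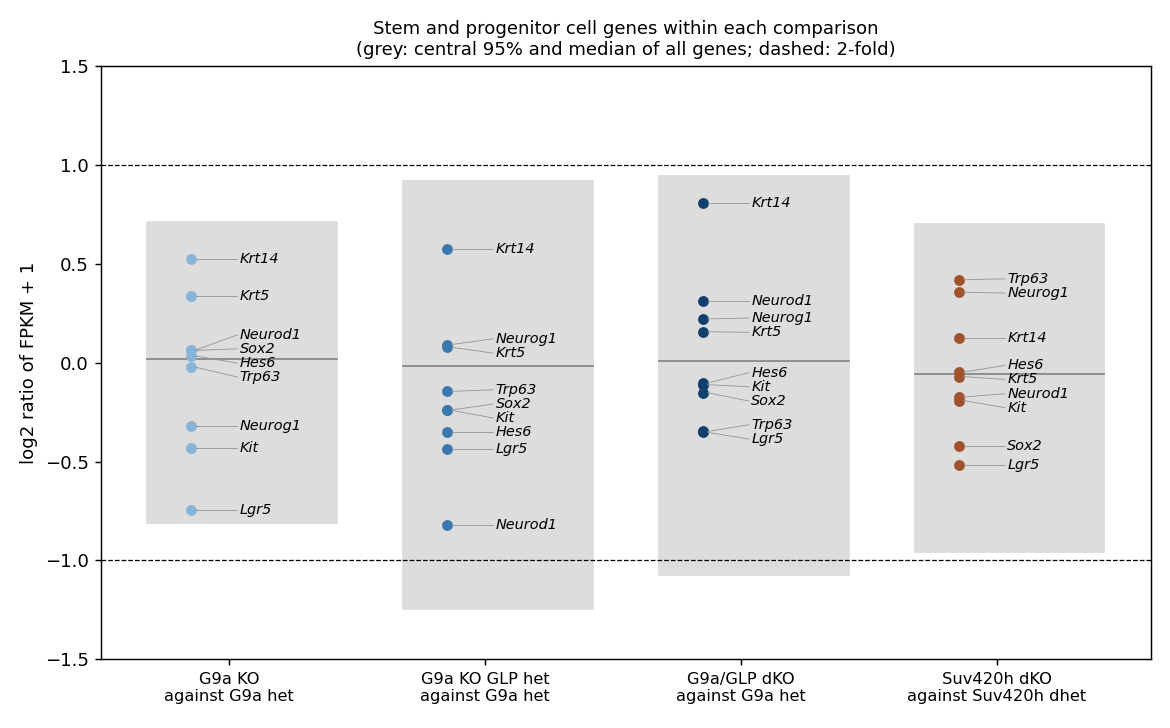
Log2 ratio of FPKM + 1 of the 9 genes (points) in each comparison, with the central 95% (grey area) and median (grey line) of all genes at 1 FPKM or more and dashed lines at 2-fold. All 36 points lie between the dashed lines; Krt14 is the highest in the 3 embryonic comparisons and Neurod1 in KO GLP het is the lowest of all, at -0.82.

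The basal keratins led the 9 genes at E18.5. Krt5, the type II keratin of basal epithelial cells (mm9 chromosome 15, 101537501 to 101543322), was at 297 FPKM in het, 376 in KO, 314 in KO GLP het and 331 in dKO. Its values spanned 1.26-fold, with het lowest, and all intervals overlapped, for example 198 to 397 in het and 209 to 455 in dKO. In the postnatal libraries Krt5 was at 15.02 FPKM in Suv420h dhet and 14.3 in Suv420h dKO, with p = 0.746 and q = 0.936 in the authors' deposited table. That test compared 1 library with 1 library.

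Krt14, the type I keratin that pairs with Krt5 in filaments (chromosome 11, 100064476 to 100068824), varied more. It was at 79.8 FPKM in het, 115 in KO, 119 in KO GLP het and 140 in dKO. The het library was the lowest and dKO the highest of the 4, and the log2 ratio of these libraries, 0.81, was the largest of the 9 genes in that comparison. The interval was 65.6 to 142 FPKM in het and 120 to 263 in dKO, so they overlapped, and each value lay near the lower bound of its interval. Postnatally Krt14 was at 8.08 FPKM in Suv420h dhet and 8.90 in Suv420h dKO, with q = 0.901 in the authors' deposited table. Krt14 resembles other type I keratins in sequence, among them Krt16 and Krt17, and the sources used here do not say how reads matching several genes were assigned. Its values are uncertain to that extent.

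Trp63, which encodes the transcription factor that maintains basal epithelial cells (chromosome 16, 25683851 to 25892174), had the opposite order at E18.5. It was at 35.7 FPKM in het, 35.0 in KO, 32.1 in KO GLP het and 27.8 in dKO, a span of 1.28-fold with overlapping intervals. The proportion of the keratins to Trp63 therefore differed between these single libraries, with no interval for the ratios to be read against. Krt14 FPKM was 2.24 times that of Trp63 in het, 3.29 in KO, 3.72 in KO GLP het and 5.05 in dKO, and Krt5 was 8.34, 10.7, 9.76 and 11.9 times Trp63 in the same order. At postnatal day 21 Trp63 was at 4.61 FPKM in Suv420h dhet and 6.50 in Suv420h dKO, a log2 ratio of 0.42 with p = 0.0438 and q = 0.294 in the authors' deposited table.

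**Figure D2:**
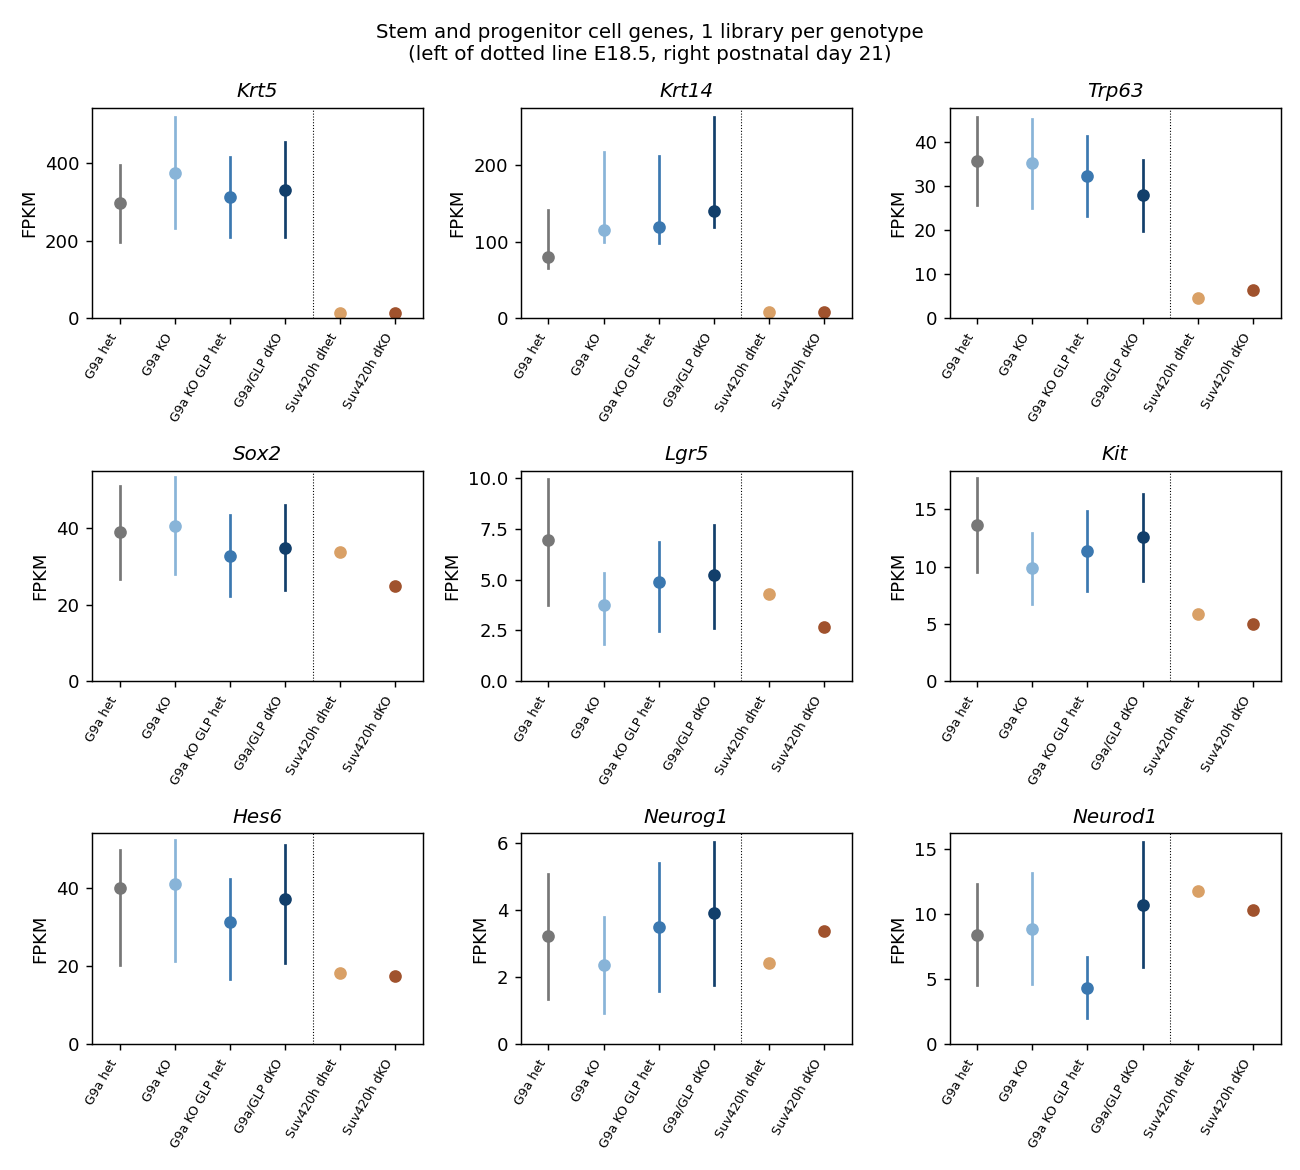
FPKM of each gene in the 6 libraries (points), with the authors' confidence intervals for the 4 embryonic libraries (vertical lines); the postnatal table has no intervals. The intervals overlap within each panel among the embryonic libraries. The 2 tables were normalized separately, so levels on both sides of the dotted line are not on one scale.

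The embryonic libraries also held RNA of genes typical of stratified skin and mouth epithelium, tissues that share these basal cell genes. The summed FPKM of 19 suprabasal and cornified skin genes was 1532 in het, 2287 in KO, 3234 in KO GLP het and 4613 in dKO. In the postnatal table, on its own scale, it was 8.38 in Suv420h dhet and 15.03 in Suv420h dKO, where 10 and 9 of the 19 were listed at 0. The order of the skin list over the embryonic libraries was that of Krt14 and not that of Krt5 or Trp63. Krt1, a keratin of the layer above the basal cells, was at 311, 589, 746 and 1113 FPKM, and its partner Krt10 at 162, 260, 529 and 899. A list of 13 oral and hair follicle genes summed to 2343, 3233, 1460 and 1696 FPKM, led by the mucosal keratins Krt13, at 1307, 1819, 871 and 972, and Krt4, at 797, 1155, 395 and 446. In the postnatal libraries that list summed to 2.15 and 2.78 FPKM, with 12 and 13 of its genes under 1 FPKM. The part of skin and mouth epithelium in the Krt5, Krt14 and Trp63 values at E18.5 was not tested. In bulk RNA, fewer cells of a type and less RNA per cell cannot be told apart.

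**Figure D3:**
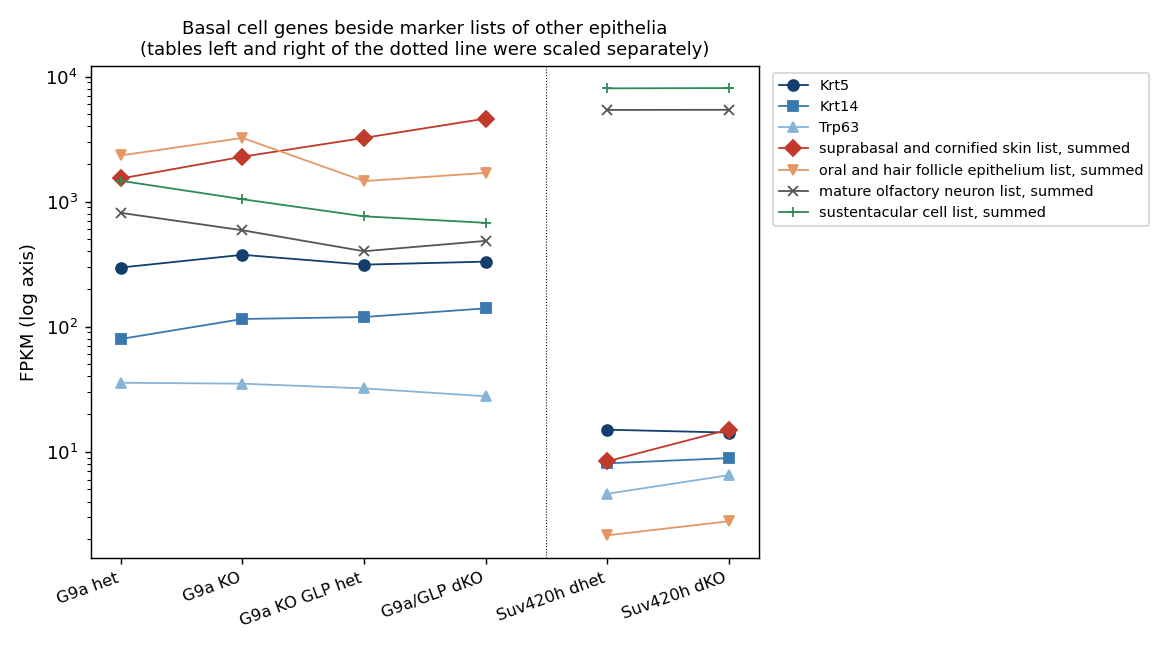
FPKM (log axis) of Krt5, Krt14 and Trp63 and summed FPKM of 4 marker lists in each library; lines join libraries of 1 table for reading and carry no order. The tables on either side of the dotted line were scaled separately. The skin and oral lists are at 1460 or more in every embryonic library; in the postnatal ones they are at 15.03 or less, and the mature neuron and sustentacular lists are at 5413 or more.

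Of 18 other horizontal basal cell genes, 0 were called in either direction in the embryonic comparisons, and 0 of the 17 that passed the minimum in the postnatal one. With 2.58% to 6.74% of all genes called, this does not set the list apart. The median log2 ratios were 0.08 in KO, 0.10 in KO GLP het, 0.00 in dKO and -0.04 in Suv420h dKO. Sfn, which encodes an epithelial 14-3-3 protein, was the highest of the list in each embryonic comparison, at 49.0 FPKM in het and 86.8, 84.5 and 90.7 in KO, KO GLP het and dKO. Krt17, a keratin induced in stressed epithelium, was at 45.2 FPKM in het and 70.1, 62.7 and 75.8 in those libraries. At the other end, the water and glycerol channel Aqp3 was at 66.4 FPKM in het and 47.5 in dKO, and the caveolar protein gene Cav1 at 88.9 in het and 65.9 in KO. Cav1 lay on the other side of het in KO GLP het, at 120.4 FPKM, and in dKO, at 117. Among the postnatal libraries Cd44, a hyaluronan receptor, was at 11.7 FPKM in Suv420h dhet and 7.73 in Suv420h dKO, and the basal keratin Krt15 at 3.44 and 5.09. The authors' deposited table gave Cd44 q = 0.00184 for these libraries and Krt15 q = 0.543.

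Sox2 and Lgr5, which mark multipotent cells, differed in how much they varied. As a fold of FPKM, Sox2 had the smallest embryonic span of the 9 genes, and Lgr5 the largest after Neurod1. On the log2 scale of FPKM + 1, Krt14 ranged further than Lgr5, over 0.81 against 0.74. Sox2, a transcription factor of stem and supporting cells, was at 39.0 FPKM in het, 40.7 in KO, 32.9 in KO GLP het and 35.0 in dKO, with overlapping intervals and a span of 1.24-fold. In the Suv420h libraries it was at 33.7 FPKM in Suv420h dhet and 24.9 in Suv420h dKO, a log2 ratio of -0.42 with p = 0.0162 and q = 0.171 in the authors' deposited table. Its deposited locus (chromosome 3, 34459303 to 34576915) is shared with the noncoding transcript Sox2ot, which overlaps it. Sox2ot was at 2.37 to 3.74 FPKM at E18.5, and at 2.97 in Suv420h dhet and 1.54 in Suv420h dKO. Sustentacular cells also make Sox2, and the summed FPKM of 14 sustentacular genes was 1468, 1046, 763 and 677 in het, KO, KO GLP het and dKO, and 8051 and 8095 in the postnatal pair. The order of that list over the embryonic libraries was not the order of Sox2, and its part in the Sox2 values was not tested.

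Lgr5, a receptor for R-spondins that amplifies Wnt signals (chromosome 10, 114887370 to 115024836), was highest in the reference library of each table, and its embryonic values spanned 1.85-fold. It was at 6.95 FPKM in het, 3.75 in KO, 4.87 in KO GLP het and 5.23 in dKO, and at 4.28 in Suv420h dhet and 2.69 in Suv420h dKO. The log2 ratio was -0.74 in KO, the largest in size of the 9 genes in that comparison, where the intervals were 3.73 to 9.96 FPKM in het and 1.85 to 5.33 in KO and overlapped. It was -0.44 in KO GLP het, -0.35 in dKO and -0.52 in Suv420h dKO, the last also the largest in size of the 9, with p = 0.0256 and q = 0.219 in the authors' deposited table. Against KO as the reference the sign turned, with 0.31 in KO GLP het and 0.39 in dKO. Among other Wnt and R-spondin genes at 1 FPKM or more, 1 of 18 or 19 was at least 2-fold lower in each embryonic comparison. Of all genes, 1.52%, 4.58% and 3.01% were lower in KO, KO GLP het and dKO. A count of 1 does not set a list of this size apart. In the embryonic comparisons 0 were higher, and postnatally 0 of 16 were called, beside 3.23% of all genes. The 1 lower gene was Rspo4, which encodes an R-spondin ligand, at 12.6 FPKM in het, 4.20 in KO, 3.07 in KO GLP het and 1.08 in dKO. Nkd1, a feedback inhibitor of Wnt signalling, was at 5.77, 7.77, 10.9 and 11.8 FPKM in that order, and the related receptor Lgr4 at 35.2, 35.5, 35.9 and 32.8. Postnatally Tcf7, a transcription factor of the pathway, was at 8.52 FPKM in Suv420h dhet and 4.50 in Suv420h dKO.

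Kit, the receptor tyrosine kinase for stem cell factor (chromosome 5, 75971012 to 76052746), was at 13.6 FPKM in het, 9.85 in KO, 11.4 in KO GLP het and 12.6 in dKO. The het library was the highest, with a span of 1.39-fold and overlapping intervals. In the postnatal pair Kit was at 5.84 FPKM in Suv420h dhet and 4.99 in Suv420h dKO, with q = 0.738 in the authors' deposited table. Mast cells also make Kit, and their genes were higher in KO GLP het and dKO than in het, where Kit was slightly lower. In the last 2 embryonic libraries 5 and 4 of 6 measured mast cell genes were at least 2-fold higher, beside 2.16% and 2.20% of all genes. The protease gene Cpa3 was at 19.7, 19.5, 84.4 and 82.4 FPKM in het, KO, KO GLP het and dKO. The summed FPKM of 9 mast cell genes was 122 in het, 111 in KO, 314 in KO GLP het and 303 in dKO. Among the postnatal libraries the sum was 15.9 and 18.4 FPKM. A list of 9 melanocyte genes summed to 7.91, 6.59, 13.2 and 18.1 FPKM at E18.5 and to 4.60 and 2.66 postnatally. The part of these cells in the Kit values was not tested. Of 12 genes for the Kit ligand and Kit signalling (11 at 1 FPKM or more postnatally), 0 were called in any comparison. With 2.58% to 6.74% of all genes called, this does not set a list of this size apart. The median log2 ratios of the list were -0.06, 0.08, -0.01 and -0.16. Kitl, the ligand, had log2 ratios of 0.01, 0.34 and 0.39 in KO, KO GLP het and dKO. Cbl, a ubiquitin ligase that acts on activated receptors, was at 7.50, 6.95, 11.9 and 12.8 FPKM in the embryonic libraries.

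Neurog1, which commits progenitors to the neuronal lineage (chromosome 13, 56351860 to 56353524), was the least abundant of the 9 genes in 5 of 6 libraries. It was at 3.22 FPKM in het, 2.37 in KO, 3.49 in KO GLP het and 3.91 in dKO, with intervals of 1.35 to 5.07 in het and 1.77 to 6.02 in dKO. In the Suv420h libraries it was at 2.42 FPKM in Suv420h dhet and 3.38 in Suv420h dKO, with p = 0.303 and q = 0.697 in the authors' deposited table. Neurog1 has 1 exon, so its FPKM could be turned into fragments. In low values of short receptor genes, FPKM times length fell in steps of 1 fragment, which put Neurog1 at about 65 fragments in Suv420h dhet and 74 in Suv420h dKO. The exact Poisson 95% intervals, which cover counting error only, were 1.88 to 3.11 and 2.64 to 4.23 FPKM and overlapped. In the embryonic table the steps were blurred, with scores of 0.134 to 0.205 against 0.733 and 0.778 postnatally, where 1 is a perfect fit. Scores this low do not fix the size of a step, so no fragment counts are given for the embryonic libraries.

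Neurod1, the bHLH factor of the next stage (chromosome 2, 79292798 to 79296793), varied most among the 9 genes at E18.5. It was at 8.39 FPKM in het, 8.82 in KO, 4.32 in KO GLP het and 10.7 in dKO. KO GLP het stood below the other 3 libraries, at a log2 ratio of -0.82 to het, and 2.47-fold below dKO. The interval was 1.98 to 6.67 FPKM in KO GLP het, 4.52 to 12.3 in het and 5.92 to 15.5 in dKO, so each pair overlapped. With KO GLP het as the reference, Neurod1 in dKO had a log2 ratio of 1.13, the only call among the 9 genes under any reference tried, where 2.95% of 15087 genes were higher by this rule and 1.09% lower. The sum of 13 immature neuron genes was also lowest in KO GLP het. It came to 782 FPKM in het, 862 in KO, 467 in KO GLP het and 733 in dKO. In KO GLP het the median log2 ratio to het was -0.59, and 4 of 13 were at least 2-fold lower, beside 4.58% of all genes. Not every gene followed the sum: Nrp1, an axon guidance receptor, was at its highest in KO GLP het. A list of 15 forebrain and olfactory bulb genes, which includes the relatives Neurod6 and Neurod2 (the latter also on the globose basal cell list), summed to 158, 234, 113 and 140 FPKM. In KO GLP het 7 of 13 measured forebrain genes were at least 2-fold lower, beside 4.58% of all genes. Their median to het was -1.25. In KO 3 of 14 were higher, beside 1.07% of all genes, with a median of 0.55. In dKO 1 of 14 was higher, beside 2.20%, with a median of -0.17, and 1 gene does not set the list apart. The part of brain tissue in the Neurod1 values was not tested. Postnatally Neurod1 was at 11.7 FPKM in Suv420h dhet and 10.3 in Suv420h dKO, with q = 0.799 in the authors' deposited table.

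Neurod1 was the only one of the 9 genes whose embryonic values spanned over 2-fold on this scale, and its profile was compared with those of 10204 other genes at 5 FPKM or more on average. The nearest 2, by the largest difference of centred log2 values in any of the 4 libraries, were Golga7b at 0.10 and Tubb2a at 0.11. Golga7b was at 8.11, 8.42, 4.24 and 9.37 FPKM in het, KO, KO GLP het and dKO. Tubb2a, a tubulin gene, was at 31.8, 37.4, 18.9 and 38.7 FPKM in the same libraries. At postnatal day 21 Tubb2a was at 44.7 FPKM in Suv420h dhet and 39.0 in Suv420h dKO.

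Neurod1 relative to Neurog1, a ratio within a library, was 2.61 in het, 3.72 in KO, 1.24 in KO GLP het and 2.73 in dKO. It was 4.85 in Suv420h dhet and 3.05 in Suv420h dKO. KO GLP het had the lowest of the 6 ratios, with Neurog1 at a level between those of the other embryonic libraries. In that library the intervals of Neurod1 and Neurog1 overlapped.

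Hes6, a member of the Hes family that promotes neuronal differentiation (chromosome 1, 93308060 to 93309799), differed little. It was at 40.0 FPKM in het, 41.0 in KO, 31.2 in KO GLP het and 37.2 in dKO. KO GLP het was the lowest, as for Sox2 and Neurod1, at a log2 ratio of -0.35 to het, and the intervals overlapped. In the postnatal pair Hes6 was at 18.1 and 17.5 FPKM, with q = 0.964 in the authors' deposited table.

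Among the other genes of globose basal cells and neurogenesis, 1 of 23 was called in KO, beside 2.58% of all genes, and 3 of 23 in KO GLP het, beside 6.74%. In KO the gene was higher, Neurod2, a factor of forebrain neurons, at 13.4 against 3.27 FPKM in het. In KO GLP het 1 was higher, Cdkn1c, an imprinted inhibitor of the cell cycle, at 651 against 324 FPKM, and 2 were lower. The lower genes were Igfbpl1, at 0.926 against 6.42 FPKM, and Neurod2, at 0.0927 against 3.27. In dKO 0 of 22 and in Suv420h dKO 0 of 21 were called, beside 5.20% and 3.23% of all genes. Cdkn1c was at 568 FPKM in dKO. The median log2 ratios were 0.20 in KO, -0.20 in KO GLP het, -0.15 in dKO and -0.01 in Suv420h dKO. Insm1, a zinc finger factor of dividing neuronal progenitors, was at 53.8, 39.4, 33.9 and 51.9 FPKM at E18.5, and Nhlh1, a bHLH factor of newly formed neurons, at 25.7, 22.6, 18.8 and 27.9. Both were lowest in KO GLP het, as Neurod1 was. In the Suv420h libraries Insm1 was at 22.4 and 27.5 FPKM and Nhlh1 at 23.1 and 26.8.

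Notch signalling is a route through which neighbouring cells restrain neurogenesis. Of 22 to 24 measured genes 0 were at least 2-fold apart in any of the 4 comparisons, beside 2.58% to 6.74% of all genes, a share too small to set a list of this size apart, and the median log2 ratios were 0.07, 0.15, 0.10 and -0.12. Among genes at 5 FPKM or more, Heyl, a target of Notch, was the highest in each embryonic comparison, at 3.04 FPKM in het and 5.58, 6.23 and 6.34 in KO, KO GLP het and dKO. Nrarp, a feedback regulator of Notch, had log2 ratios of 0.21, 0.72 and 0.62 in that order. Mfng, which modifies Notch with sugars, was at 5.81 FPKM in het and 4.38, 3.98 and 3.30 in the others. Postnatally the ligand gene Jag2 was at 11.7 FPKM in Suv420h dhet and 14.9 in Suv420h dKO.

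Proliferation genes were slightly higher in the embryonic knockout libraries than in het, without a call, where 2.58% to 6.74% of all genes had one. Of 21 genes, 21 were above 0 on the log2 scale in KO, 20 in KO GLP het and 21 in dKO, where 52.4%, 48.1% and 51.2% of all genes were. Medians were 0.27, 0.30 and 0.28, and they stayed above 0 when libraries were scaled by the median ratio of genes or to a common sum. Mki67, a marker of dividing cells, was at 32.9, 38.4, 38.9 and 35.9 FPKM in het, KO, KO GLP het and dKO, and Cdc20, which drives exit from mitosis, at 9.80, 14.8, 14.5 and 14.4. Since het is the reference of all 3, a low value there enters each of them. Postnatally, 5 of 21 were above 0, with a median of -0.19 where all genes had -0.06, and Mcm3, of the replicative helicase, was at 5.18 and 3.09 FPKM. Dividing cells of any type in the tissue contribute to these genes, and their share was not tested.

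**Figure D4:**
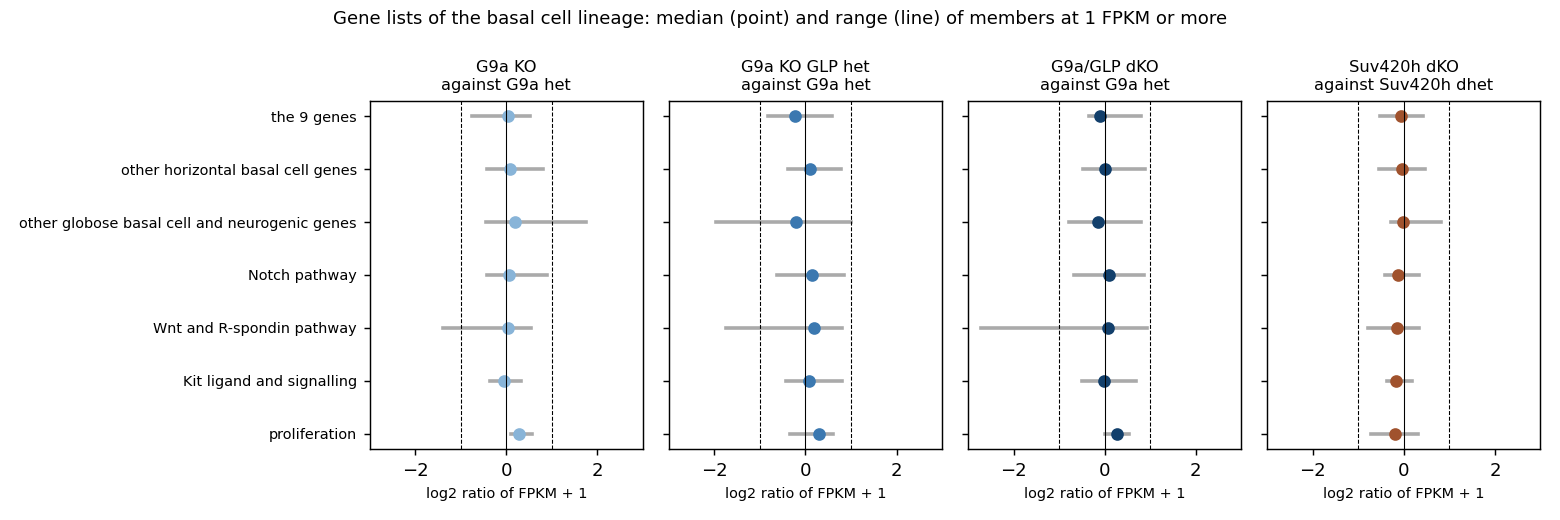
Median (point) and range (line) of the log2 ratio of FPKM + 1 for the 9 genes and 6 lists of related genes in each comparison, over list members at 1 FPKM or more, with dashed lines at 2-fold. The medians lie between -0.24 and 0.30; the ranges reach past 2-fold for the Wnt list, through Rspo4, and for the globose basal cell list.

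The order of the 9 genes differed between the ages. In het it was Krt5, Krt14, Hes6, Sox2, Trp63, Kit, Neurod1, Lgr5 and Neurog1, from the highest FPKM to the lowest. Of the neighbours, Krt5 and Krt14, Krt14 and Hes6, and Trp63 and Kit had intervals that did not overlap, while the neighbours Hes6 and Sox2, Sox2 and Trp63, Kit and Neurod1, Neurod1 and Lgr5, and Lgr5 and Neurog1 overlapped. KO and dKO had the same order, and in KO GLP het Sox2 and Trp63 stood above Hes6, and Lgr5 above Neurod1, all with overlapping intervals. The intervals of Krt5 and Krt14 overlapped in KO GLP het and dKO. In Suv420h dhet the order was Sox2, Hes6, Krt5, Neurod1, Krt14, Kit, Trp63, Lgr5 and Neurog1, and in Suv420h dKO Trp63 stood above Kit and Neurog1 above Lgr5. The spread between postnatal neighbours, 1.08-fold to 1.86-fold in Suv420h dhet, has no interval to be read against.

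The tables were normalized separately, so no fold was taken between the ages, and sums of either age given above stand on their own scales. Age also came with other genotypes. Ranks and ratios within a library do not depend on that scale. Krt5 stood above 99.6% to 99.7% of all genes in the embryonic libraries and above 75.1% and 74.9% in Suv420h dhet and Suv420h dKO. Krt14 stood at 97.1% to 98.7% at E18.5 and at 61.6% and 64.8% postnatally, and Trp63 at 87.5% to 91.0% and at 51.1% and 58.6%. Neurod1 was at 47.8% to 65.6% in the embryonic libraries and at 69.6% and 67.8% in the postnatal ones, and Neurog1 at 38.9% to 45.1% and at 41.0% and 47.5%. Krt5 FPKM was 7.62 to 9.54 times that of Sox2 in the embryonic libraries, and 0.445 and 0.572 times in the postnatal ones. The rank of Sox2 itself was 90.0% to 92.3% and then 89.9% and 85.7%. As given above, most genes of the skin and oral lists were under 1 FPKM in the postnatal libraries.

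**Figure D5:**
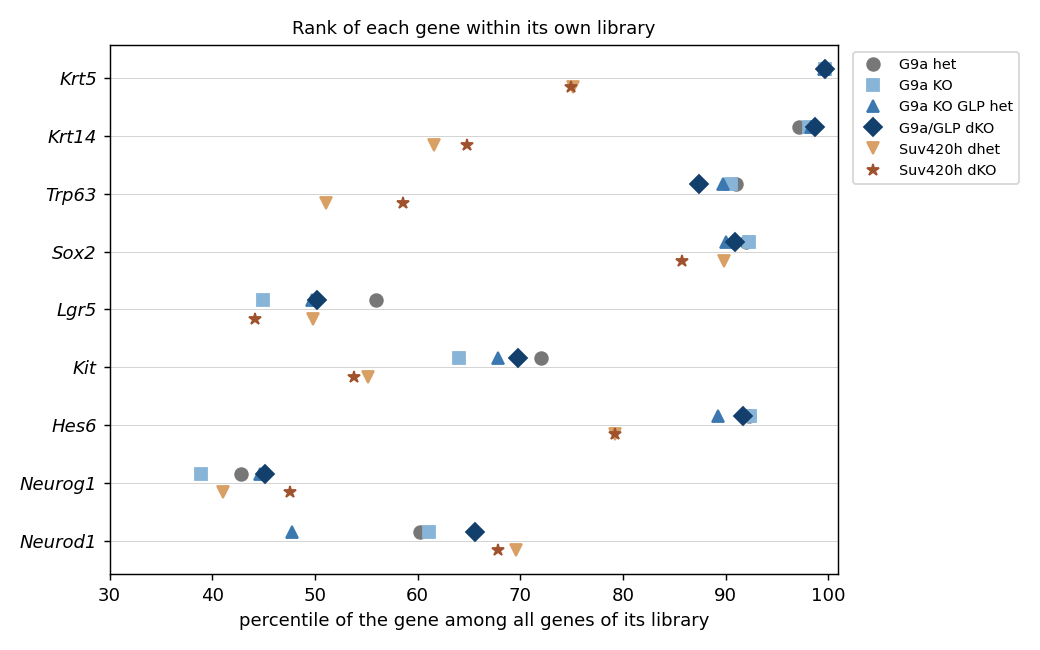
Percentile of each gene among all genes of its own library, by FPKM, with the embryonic libraries in grey and blue and the postnatal ones in brown. Krt5, Krt14 and Trp63 rank lower in both postnatal libraries than in every embryonic one, while Neurod1 ranks higher.

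Marker lists showed that the labelled tissue was present in each library, beside RNA of other tissues. All 16 mature olfactory neuron genes were at 1 FPKM or more in each library and summed to 401 to 813 FPKM at E18.5 and to 5413 and 5424 postnatally. They were lower than in het in all 3 embryonic libraries, with medians of -0.67, -1.32 and -0.87. Calls were 4, 10 and 8 of 16, beside 2.58%, 6.74% and 5.20% of all genes. Sustentacular genes had medians of -0.50, -0.73 and -1.06 and Bowman gland genes of -0.70, -1.37 and -2.05. Respiratory ciliated genes had medians of -0.06, -0.43 and -0.50, microvillar genes of -0.57, -0.89 and -0.98, and glial genes of 0.01, -0.43 and -0.02. Tooth genes summed to 1124, 613, 133 and 79.7 FPKM, with medians of -0.64, -2.43 and -3.40. Among the postnatal libraries forebrain genes had a median of -0.75 with 3 of 11 lower and 1 higher. Of 5 measured tooth genes 1 was lower and 3 higher there, and of all genes 2.19% were lower and 1.04% higher. The median of the 9 genes was 0.03 in KO, -0.24 in KO GLP het and -0.10 in dKO. In each it was smaller in size than the mature neuron, sustentacular, Bowman gland, microvillar, ciliated and tooth medians. The glial and immature neuron medians were smaller still in KO and dKO, at -0.02 and -0.03 for the immature neuron list. The median of the other horizontal basal cell genes was smaller in KO GLP het and dKO, though larger in KO. A small median therefore does not set the 9 genes apart.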

How the data were processed

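TopHat, Cufflinks and Cuffdiff on mouse build mm9 are named in the submitters' processing notes, with no versions. Per the file headers, the authors deposited FPKM per gene symbol, with interval bounds in the embryonic table, and p-values and q-values of 1 library against 1 library in the postnatal one. Another 8 columns of values, with headers not matched to 1 library, were not used. Loci are mm9, counted from 1, and promoters were found for 7 of 9 genes.

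Groups came from the labels. Ratios of FPKM + 1, which understate differences of low genes, were taken within a table; micro- and small RNAs and 25 symbols turned into dates were left out. An exact 0 can be a failed estimate. The 9 genes, 6 lists of related genes and 13 marker lists, which leave out the 9, were chosen with earlier results of these data known. The text names genes at either end of a list at 5 FPKM or more, the nearest profiles (2 of 3; the other is not reported here) and abundant markers; Neurod2 in KO GLP het, Lgr4, Mki67, Sox2ot and further libraries of named genes were added after their values were seen. Alternatives were another pseudocount, minimum, scaling, reference or call rule. Scripts were tested on simulated data with Python 3.11.15, numpy 2.4.6, pandas 2.3.3 and scipy 1.17.1. Depth is not stated. In Suv420h dhet 1 fragment was worth 0.0624 FPKM times kb and in Suv420h dKO 0.0758. The embryonic steps were too blurred to give a value.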

Additional observations from a re-analysis of the deposited data

How the results depend on the processing

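No paired analysis was possible because each genotype had 1 library, and for the same reason no library could be left out. The count of 0 called genes of the 9 held in each comparison with a pseudocount of 0.1 and with scaling by the median ratio or to a common sum (TPM). It held in the postnatal comparison with the authors' q under 0.05 in place of 2-fold, where 4.14% of 16058 tested genes had one. No minimum, a minimum of 5 FPKM, and non-overlapping intervals as a further condition in the embryonic comparisons were also run, but could not change a count of 0 and say nothing about stability. At an unadjusted p under 0.05 in the authors' deposited table, 3 of 9 genes passed, beside 15.9% of all. The exception was dKO with KO GLP het as the reference, where 1 gene, Neurod1, was higher. Of 202 single ratios under these alternatives 11 changed sign, 10 of them with another reference library and 1, Krt14 in Suv420h dKO, on the TPM scale (-0.04 against 0.12). None of these 11 was 2-fold apart. TPM scaling moved the median of all genes in Suv420h dKO by -0.17, and there the calls over all genes were 258 higher and 958 lower (21.2% higher) against 157 and 330 (32.2%). On that scale calls rose to 316 and 662 from 162 and 230 in KO, to 573 and 1413 from 329 and 697 in KO GLP het, and to 709 and 1007 from 336 and 460 in dKO. The TPM scale also changed the size of all values while the pseudocount and the minimum stayed at 1. The rise in calls therefore does not measure the scaling between libraries alone.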
